A study of Danio rerio with 7 samples.

Results

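The genes described here are the translation initiation, elongation and release factors and the aminoacyl-tRNA synthetases that the series named on its arrays. They were taken from the authors' 3 lists of probes at or under a log2 ratio of -0.584, a 1.5-fold reduction, on every array of 24, 30 or 48 hpf (hours post fertilization). A probe was a member where its listed or current gene symbol began with eif, eef or etf1, or was that of a tRNA synthetase. This gave 39 of the 3794 genes named through the lists, measured by 49 of the 43663 probes. They were 22 initiation factors, 4 kinases and repressors of initiation, 6 elongation and release factors, and 7 genes under synthetase symbols. One of the last, dtd1, was listed as hars2, but its Entrez number now names a D-aminoacyl-tRNA deacylase, so it is a member by its listed name only. The 24 hpf list held 20 of the genes, the 30 hpf list 10 and the 48 hpf list 15.

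Each of the 7 arrays compared whole AB strain zebrafish embryos injected with tbx5-MO, a morpholino against the T-box gene tbx5 and labelled with Cy5, with control wild-type (WT) embryos labelled with Cy3. Embryos of 24 hpf were hybridized on 2 arrays, those of 30 hpf on 2 and those of 48 hpf on 3, with the same age in both channels. The WT embryos are the only control on these arrays, so an effect of injection or of any morpholino cannot be told apart from one of tbx5, and with no array of swapped dyes the same holds for the dye. The RNA was from pooled whole embryos, and fewer cells of a type and less RNA per cell cannot be told apart.

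Protein synthesis starts when eIF2 carries the initiator tRNA to the small ribosomal subunit, which eIF3 and eIF1A hold ready, while eIF4E, eIF4G and the helicase eIF4A bring the capped mRNA. eIF2 must be recharged by eIF2B, and kinases such as PERK, encoded by eif2ak3, stop this under stress. The 4E-binding proteins stop initiation by occupying eIF4E. Elongation factors then deliver charged tRNAs and move the ribosome, eRF1 ends the chain at a stop codon, and a synthetase for each amino acid charges the tRNAs.

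The values were log2 ratios of morphant over WT, 1 per probe and array, as normalized by the authors. Array medians over all probes lay between -0.03 and 0.01 and the SD over probes between 0.77 and 1.49. Values shared by more than 10 probes of an array made up 11.4% to 67.3% of the array, and 2.04% to 20.4% of the members' values. A mean for each stage was fitted in limma with 1 spread shared by the 7 arrays. That spread includes the arrays of a member's own list, so the p-values and calls of these fits draw in part on values chosen as low. For eif4a1a at 30 hpf the SE was 0.88 although the SD of its arrays there was 0.01. Its listed 24 hpf values had an SD of 3.06. Whether arrays of the same age were separate embryo pools is not stated, so the p-values cover the spread from array to array, part of which can be technical, and the small number of arrays limits the precision. The array names in the lists carry 2 prefixes, one for 24 hpf replicate 1 and both 30 hpf arrays, the other for 24 hpf replicate 2 and all 48 hpf arrays. The size of a prefix term in a fit thus comes from the 24 hpf arrays alone. Muscle markers, 15 to 17 of 26 genes by stage, had array medians of -2.10 to -1.11 at 24 and 30 hpf and of 0.82 to 1.34 at 48 hpf. Array medians of the lens, neuron and red blood cell markers lay between -2.04 and -0.27 at the earlier stages and between 0.44 and 2.65 at 48 hpf. The markers came from genes that the lists of other stages name as reduced, and any also on the stage's own list were left in. Their early medians can thus be low by selection. The part of these marker shifts in the members' values was not tested.

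A gene on a stage's own list was low there by selection. At each stage the members were therefore read only through probes that the lists of the other stages name, which left 22 members on the arrays of 24 hpf, 35 on those of 30 hpf and 27 on those of 48 hpf. The background was every gene named in that way, 2253, 2452 and 3332 genes. Some of these probes are on the list of the stage itself as well, and the counts are given with and without the genes they name. Such probes were those of eefsec and eif4e2 at 24 hpf, of eefsec, eif3eb, eif4e2 and eif4a2 at 30 hpf, and of eif4a2 and eif3eb at 48 hpf. A gene listed at the stage through another probe only stayed in both counts. These were eif2ak3 at 24 and 30 hpf and eif3f at 30 and 48 hpf. Values on a gene's own list are given as a description, with no test.

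**Figure D1:**
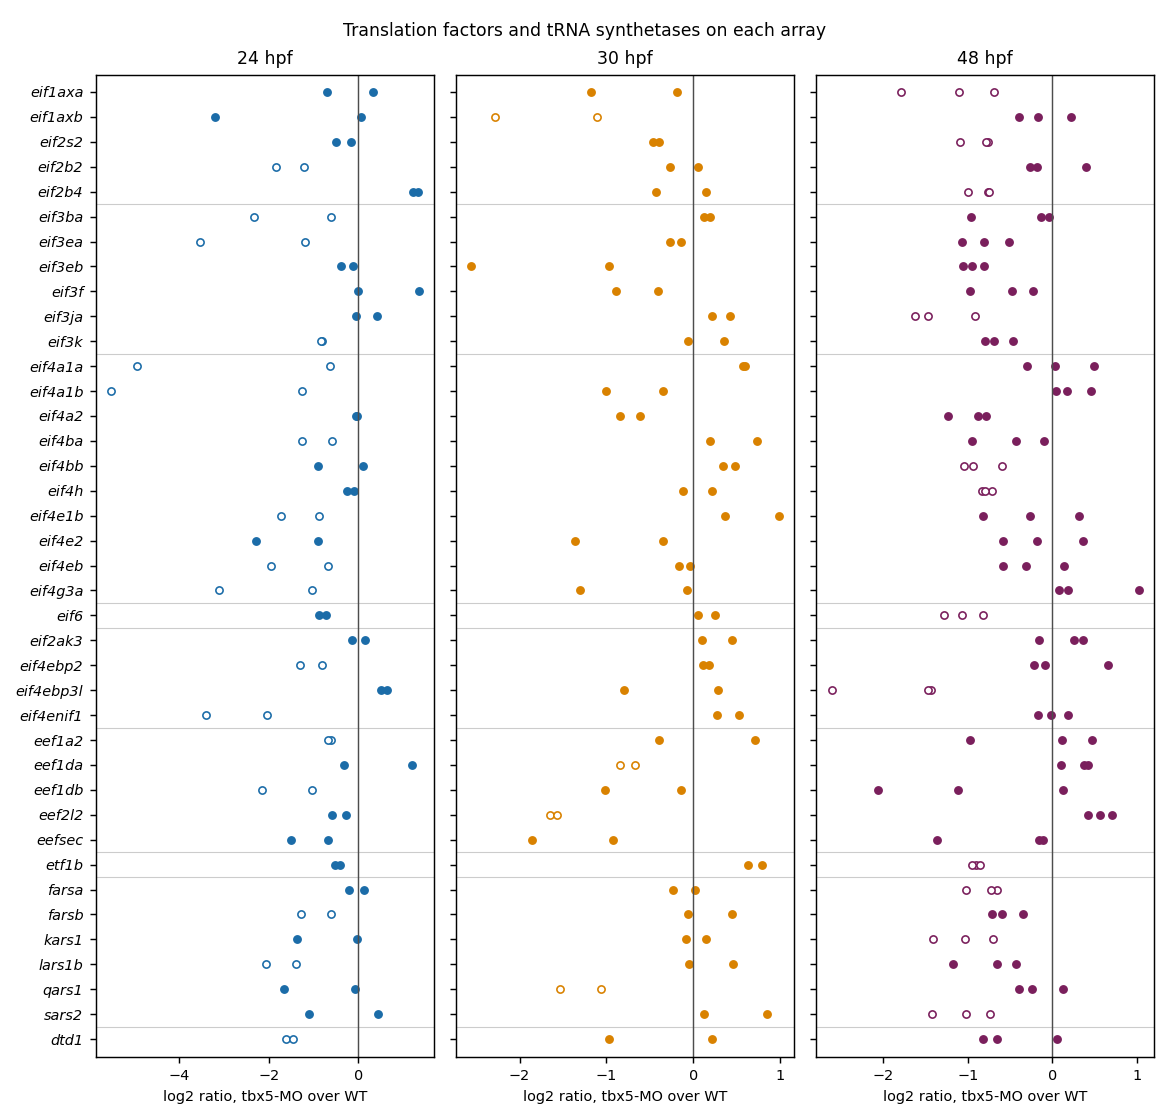
Log2 ratio (x axis) of tbx5-MO over WT for each of the 39 genes (rows, in order of role) on each array of 24, 30 and 48 hpf, with 1 point per array. Filled points come from probes named through the lists of other stages. Open points come from the stage's own list, where all values are low by selection. The filled points lie on both sides of 0 at every stage, and the x axes differ in range.

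At 24 hpf no member passed the test. The mean over both arrays was below 0 for 16 of 22 members, beside 1381 of the 2253 named genes. In limma 0 of 22 members had an adjusted p under 0.05, where 13 of all 43425 genes and single probes did (0.0299%). At an unadjusted p under 0.05 there were 3 members, eif2b4, eif4e2 and eif6, or 13.6%, against 12.3% of all. Of the 2253 named genes 341 had such a p, and the eif4e2 values are low by selection on the 24 hpf list. Both arrays were below 0 for 11 of 22 members, against 37.1% of the named genes. Without members read through a probe also on the 24 hpf list this held for 9 of 20, against 27.9%. Both were above 0 for 2 members, eif2b4 and eif4ebp3l, 9.09% against 19.3%. A ratio at least 1.5-fold lower on both arrays was found for 3 members, eefsec, eif4e2 and eif6, 13.6% against 11.7%. Of these eif6 alone is not on the 24 hpf list, and it met the limit only as the mean of its probes. One eif6 probe had -1.21 and -0.52 and the other -0.55 and -0.91, so neither met it on both arrays. The median log2 ratio of the members was -0.10 on replicate 1 and -0.24 on replicate 2, and that of the named genes -0.16 on each. Without replicate 2 the median over members moved from -0.29 to -0.10.

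The members at 30 hpf were spread evenly around 0. No member passed limma's adjusted test, which 3 of 43406 genes and single probes did (0.00691%). An unadjusted p under 0.05 was found for 2 of 35 members, eif3eb and eefsec, 5.71% against 8.4% of all and 265 of the 2452 named genes. Both are low by selection on the 30 hpf list. There were 12 members below 0 on both arrays, 34.3% against 37.5% of the named genes, and 12 above 0 on both, 34.3% against 25.7%. Without the 4 members read through a probe also on the 30 hpf list 8 of 31 were below 0, against 29.7%. The 8 include eif3f, listed at 30 hpf through its other probe. The median over members then moved from 0.03 to 0.15. At least 1.5-fold lower on both were eefsec, eif3eb and eif4a2, 3 members or 8.57% against 10.6%, and all of them are also on the 30 hpf list. Their median was -0.04 on replicate 1 and 0.06 on replicate 2, and for the named genes it was -0.03 and -0.15.

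At 48 hpf a somewhat larger share of the members than of the named genes lay below 0 on every array. This excess rests on few members, some of them low by selection, and was not tested. No single gene was called. limma called 0 of 43285 genes and single probes (0%), members included, and 2490 of them (5.75%) had an unadjusted p under 0.05. Among these were 4 of the 27 members, eif4a2, eif3eb, eif3k and lars1b, 14.8%, beside 309 of the 3332 named genes. The values of eif4a2 and eif3eb are on the 48 hpf list and low by selection, so their p-values are no test. All 3 arrays were below 0 for 10 members, 37.0% against 25.3% of the named genes. Without members read through a probe also on the 48 hpf list this held for 8 of 25, against 22.6%. The 8 include eif3f, listed at 48 hpf through its other probe. Above 0 on all 3 were 4 members, 14.8% against 17.6%. Those at least 1.5-fold lower on every array were eif4a2 and eif3eb, 2 members or 7.41%, against 3.21%, and both are also on the 48 hpf list itself. The members' medians were -0.39, -0.13 and -0.18 on replicates 1 to 3, and those of the named genes -0.10, -0.10 and 0.01. Without replicate 1 the median over members moved from -0.25 to -0.09, and with the array prefix as a block it was -0.13.

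**Figure D2:**
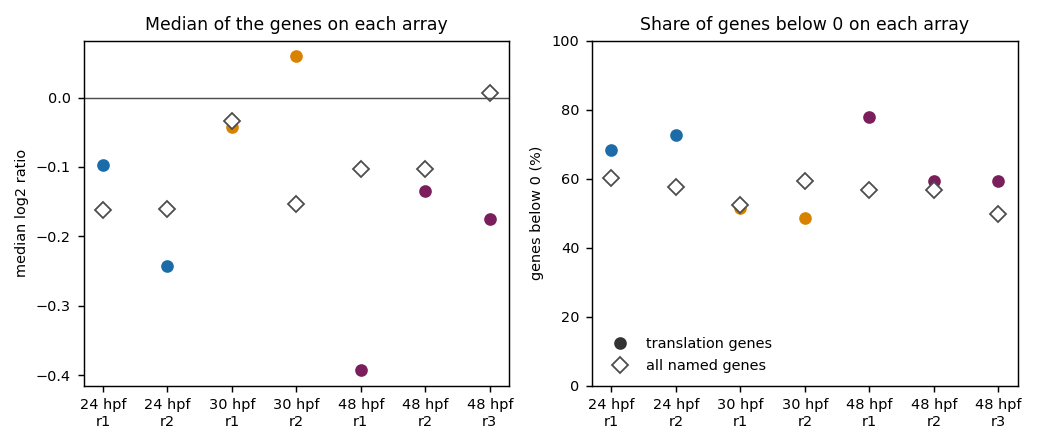
Median log2 ratio (left) and percentage of genes below 0 (right) on each of the 7 arrays, where r1 to r3 are the replicates. Circles are the 22, 35 and 27 translation genes read through other stages' lists at 24, 30 and 48 hpf, and diamonds are all genes named in the same way. The circle lies below the diamond on all 3 arrays of 48 hpf, by the widest gap on replicate 1 (-0.39 against -0.10), and earlier only on 24 hpf replicate 2 (-0.24 against -0.16) and, slightly, on 30 hpf replicate 1.

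Among the factors that select the start codon and handle eIF2, a subunit gene of eIF2B, eif2b4, had the highest mean log2 ratio over both arrays among the 22 members read at 24 hpf, where another, eif2b2, was on the list. The guanine nucleotide exchange factor eIF2B reloads eIF2 with GTP, and eif2b4 encodes its delta subunit. At 24 hpf eif2b4 had log2 ratios of 1.22 and 1.34, a mean of 1.28 ± 0.09 (SD, n = 2), with a limma adjusted p of 0.335. Both arrays were above 0. Its probe, at chr20:19622643-19622702 in the coordinates of the lists, gave 0.15 and -0.43 at 30 hpf, on both sides of 0. On its own list at 48 hpf it had -1.0, -0.76 and -0.75. The beta subunit gene eif2b2 had -1.84 and -1.20 at 24 hpf, where it is on the list, then 0.05 and -0.27 at 30 hpf and -0.26, -0.18 and 0.39 at 48 hpf. Both later stages straddled 0 for eif2b2.

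The eIF2 beta subunit gene eif2s2 was slightly below 0 at both early stages, with log2 ratios of -0.49 and -0.16 at 24 hpf and of -0.39 and -0.46 at 30 hpf. The adjusted p was 0.750 and 0.799. It was listed at 48 hpf, at -1.09, -0.76 and -0.78. For eif1axa, a gene of the scanning factor eIF1A, the 24 hpf ratios were 0.33 and -0.70 and the 30 hpf ratios -0.19 and -1.18, and its mean on the 48 hpf list was -1.20 ± 0.55 (SD, n = 3). Its paralog eif1axb had -3.21 and 0.07 at 24 hpf, so that the mean of -1.57 ± 2.32 (SD, n = 2) came from 1 array. With both arrays its adjusted p in limma was 0.442. Without replicate 2 the single value of -3.21 was left, with no replication at 24 hpf. At 48 hpf eif1axb had -0.39, 0.22 and -0.18, on both sides of 0, and on the 30 hpf list its mean was -1.69 ± 0.84 (SD, n = 2).

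The subunits of eIF3, the scaffold that binds the small ribosomal subunit and joins it to the mRNA complex, were all below 0 at 48 hpf and mixed before. This group was picked out after its values were seen, and its count is a description. At 48 hpf 5 subunit genes were named through other lists, and 5 of 5 were below 0 on all 3 arrays, beside the 25.3% of all named genes. The eif3eb probe is also on the 48 hpf list, and without it the count was 4 of 4, beside 22.6% of the named genes. Of these 4 genes eif3f is listed at 48 hpf through its other probe, so the count is not free of that list. Their median was -0.81, -0.51 and -0.97 on replicates 1 to 3. None had a limma adjusted p under 0.839.

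For eif3eb, a gene of the eIF3e subunit, the 48 hpf ratios were -0.81, -0.95 and -1.06, a mean of -0.94 ± 0.13 (SD, n = 3), or 1.92-fold lower in the morphants. Its values shared by up to 19 probes on an array were coarse, and none of its 7 values was found on a single probe only. The paralog eif3ea had -0.81, -0.51 and -1.07 at 48 hpf, mean -0.80 ± 0.28, from a probe whose 7 values were each found on it alone. These 2 genes of 1 subunit thus overlapped in range at 48 hpf. At 30 hpf they did not, since eif3eb had -2.56 and -0.97 (adjusted p = 0.450 in limma, also on that stage's list) and eif3ea only -0.14 and -0.27. At 24 hpf eif3eb had -0.11 and -0.39, and eif3ea, listed there, -1.18 and -3.53.

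The subunit gene eif3k had 48 hpf ratios of -0.80, -0.69 and -0.47, a mean of -0.65 ± 0.17 (SD, n = 3). With a probe at chr15:45560512-45566391, each of its 7 values was found on it alone. At 30 hpf it gave -0.05 and 0.36, and on the 24 hpf list -0.82 and -0.83. For eif3f the probe named at 30 hpf gave -0.48, -0.23 and -0.97 at 48 hpf, and its other probe, on the 48 hpf list, -0.76, -0.63 and -0.70. Both eif3f probes were above 1 on 24 hpf replicate 2, at 1.51 and 1.20, and near 0 on replicate 1, at 0.07 and -0.08.

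The RNA-binding subunit gene eif3ba had -0.96, -0.13 and -0.04 at 48 hpf as the mean of 2 probes, a mean of -0.38 ± 0.51 (SD, n = 3). One of these probes was below 0 on all 3 arrays (-0.58, -0.43 and -0.35), and the other on replicate 1 only (-1.34, 0.16 and 0.27). At 30 hpf eif3ba had 0.12 and 0.19. The loosely bound subunit gene eif3ja was read at 24 and 30 hpf and gave 0.42 and -0.06, then 0.22 and 0.43. On the 48 hpf list its mean was -1.34 ± 0.37 (SD, n = 3). With the array prefix as a block, the 48 hpf means of eif3ba and eif3ea turned to 0.48 and 0.38, while those of eif3eb and eif3k stayed at -0.80 and -0.65. The prefix term came from the 24 hpf arrays alone, where eif3ba and eif3ea are listed and low by selection.

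**Figure D3:**
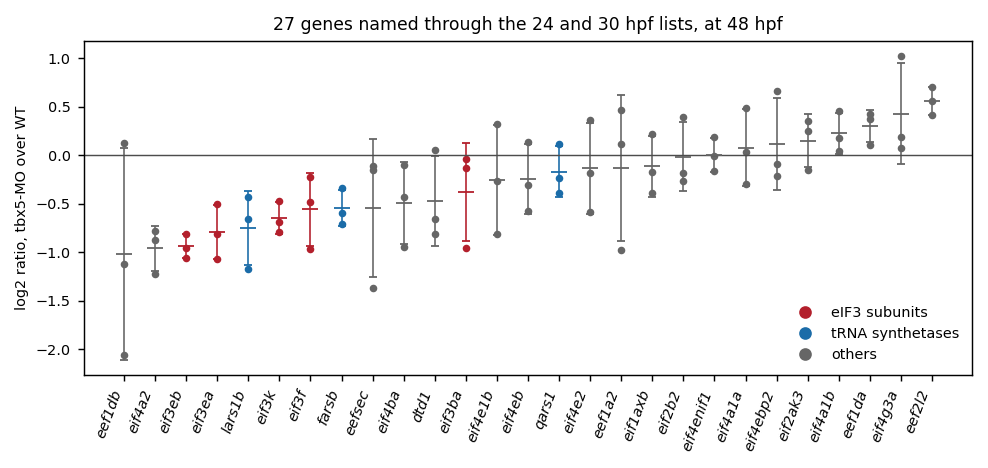
Log2 ratios at 48 hpf of the 27 genes named through the 24 and 30 hpf lists, in order of their mean. Points are the 3 arrays, the horizontal mark is the mean and the bar its SD. The 5 eIF3 subunit genes lie below 0 on every array, as do 2 of 3 synthetase genes, beside 25.3% of all named genes. The eif3ba points are means of 2 probes, of which 1 was above 0 on replicates 2 and 3. The values of eif3eb and eif4a2 are on the 48 hpf list and low by selection. Above 0 on every array lie eef2l2, eif4g3a, eef1da and eif4a1b, beside 17.6% of the named genes.

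The factors that bind the cap and unwind the mRNA lay on both sides of 0. Among the 8 read at 48 hpf 2 were below 0 on all 3 arrays and 2 above, beside 25.3% and 17.6% of the named genes. At 30 hpf 5 of 10 were below on both arrays and 4 above, beside 37.5% and 25.7%. Those below include eif4a2 at both stages and eif4e2 at 30 hpf, each with a probe on that stage's list and low by selection. eif4a2, 1 of 3 genes here of the helicase eIF4A, had -0.87, -0.79 and -1.23 at 48 hpf, mean -0.96 ± 0.23 (SD, n = 3). These values are on the 48 hpf list and low by selection. The limma p-values on them, 0.00972 unadjusted and 0.839 adjusted, are therefore no test of a change. At 30 hpf eif4a2 had -0.84 and -0.62, and at 24 hpf -0.03 and -0.04. The gene thus stood at 0 on both arrays of 24 hpf and below -0.6 on all 5 later ones, which are on its own lists.

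The other helicase genes, eif4a1a and eif4a1b, held the lowest single values of all members, -4.96 and -5.52, both on 24 hpf replicate 2 and both on that stage's list. On replicate 1 they had -0.64 and -1.27, so their SD at 24 hpf was 3.06 and 3.01. At 30 hpf eif4a1a had 0.58 and 0.59 and eif4a1b -1.0 and -0.35. At 48 hpf eif4a1a had -0.30, 0.03 and 0.49 and eif4a1b 0.45, 0.04 and 0.17. The paralogs were therefore on opposite sides of 0 at 30 hpf and overlapped at 48 hpf. Whether a probe also binds the RNA of a paralog could not be checked without probe sequences.

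Of the helicase cofactors, eif4ba had 0.73 and 0.19 at 30 hpf and -0.10, -0.95 and -0.44 at 48 hpf. Its paralog eif4bb had 0.48 and 0.34 at 30 hpf, 0.10 and -0.89 at 24 hpf, and a mean of -0.86 ± 0.23 (SD, n = 3) on the 48 hpf list. Both eIF4B genes were thus above 0 on both 30 hpf arrays, and at 48 hpf eif4ba, read free of that list, was below 0 on all 3. For eif4h the 24 hpf ratios were -0.26 and -0.11 and those of 30 hpf 0.21 and -0.11, with -0.78 ± 0.06 (SD, n = 3) on the 48 hpf list. The scaffold gene eif4g3a had -0.07 and -1.31 at 30 hpf and 0.19, 1.02 and 0.07 at 48 hpf, with at least 1 value shared by 59 probes, and on the 24 hpf list -3.11 and -1.03.

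The cap-binding genes lay on both sides of 0 at 48 hpf. eif4e2 encodes 4EHP, a cap-binding protein that in mammals competes with eIF4E. At 24 hpf its probe from the 30 hpf list had -0.91 and -2.28, a mean of -1.59 ± 0.97 (SD, n = 2), with an adjusted p of 0.352 in limma, and this probe is also on the 24 hpf list. Its ratios were -0.34 and -1.37 at 30 hpf and -0.58, -0.18 and 0.36 at 48 hpf, where they lay on both sides of 0. eif4e1b, an eIF4E gene of the germ line and early embryo, had 0.37 and 0.99 at 30 hpf and -0.27, -0.82 and 0.32 at 48 hpf. On the 24 hpf list its mean was -1.31 ± 0.59 (SD, n = 2). For the eIF4E gene eif4eb the ratios came to -0.04 and -0.17 at 30 hpf, then -0.58, 0.14 and -0.31 at 48 hpf, and its mean on the 24 hpf list was -1.32 ± 0.91 (SD, n = 2).

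eif6 encodes the factor that keeps the large ribosomal subunit from joining too early. At 24 hpf its 2 probes averaged -0.88 and -0.71, a mean of -0.80 ± 0.12 (SD, n = 2), or 1.74-fold lower, with an adjusted p of 0.405. At 30 hpf eif6 had 0.25 and 0.06, so the stages did not overlap. Its mean on the 48 hpf list was -1.06 ± 0.23 (SD, n = 3).

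Of the kinase and the repressors of initiation, read through other lists, none of the 3 at 48 hpf, none of the 4 at 30 hpf and none of the 2 at 24 hpf was below 0 on every array, beside 25.3%, 37.5% and 37.1% of the named genes. The kinase gene eif2ak3 is counted by the mean of its probes, one of which was below 0 on all 3 arrays of 48 hpf. The 4E-binding protein gene eif4ebp3l had 0.64 and 0.51 at 24 hpf, mean 0.58 ± 0.09 (SD, n = 2), then -0.79 and 0.29 at 30 hpf, and on the 48 hpf list -1.43, -1.47 and -2.61. That last mean, -1.84 ± 0.67 (SD, n = 3), was the lowest of the 15 members on the 48 hpf list. For eif4ebp2 the ratios were 0.18 and 0.11 at 30 hpf and -0.09, -0.22 and 0.66 at 48 hpf. eif4enif1, which carries eIF4E into the nucleus in mammals, had 0.52 and 0.27 at 30 hpf and -0.17, -0.01 and 0.19 at 48 hpf. On the 24 hpf list eif4ebp2 had a mean of -1.06 ± 0.35 (SD, n = 2) and eif4enif1 of -2.73 ± 0.95 (SD, n = 2). Both were thus above 0 on both 30 hpf arrays, eif4ebp2 as the mean of 2 probes, of which 1 had 0.06 and -0.13. Their 24 hpf values are low by selection.

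Within the elongation factors the paralogs and subunits differed from each other. eef2l2, an eEF2-like gene of the translocation step with 3 probes, had -0.28 and -0.59 at 24 hpf and 0.42, 0.71 and 0.56 at 48 hpf, where the mean was 0.56 ± 0.14 (SD, n = 3), the highest of the 27 members, with an adjusted p of 0.839. One of its probes was at -0.16 on replicate 3, and limited to values shared by at most 10 probes the mean was 0.20, under eef1da (0.30) and eif4a1b (0.22). All 3 probes were on the 30 hpf list, and their mean was -1.65 on replicate 1 and -1.57 on replicate 2. eefsec, the factor that brings selenocysteine tRNA to the ribosome, had ratios of -0.68 and -1.51 at 24 hpf, -0.93 and -1.85 at 30 hpf (adjusted p = 0.417 and 0.540), and -1.37, -0.12 and -0.15 at 48 hpf. The 24 and 30 hpf values are on the lists of those stages, and 1 of its values was shared by 152 probes.

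The paralogs for the delta subunit of the eEF1B exchange complex had means on opposite sides of 0 at 48 hpf, with ranges that overlapped. eef1da had 0.37, 0.11 and 0.42, above 0 on every array, and eef1db 0.12, -2.06 and -1.12, with the lowest mean of the 27 members, -1.02 ± 1.1 (SD, n = 3). The SD of eef1db exceeded the size of its mean, and replicate 1 was above 0. At 24 hpf eef1da had 1.20 and -0.32, and at 30 hpf eef1db had -0.14 and -1.02. On their own lists the means were -0.76 ± 0.12 (SD, n = 2) for eef1da in the 30 hpf list and -1.58 ± 0.79 (SD, n = 2) for eef1db in the 24 hpf list. The gene eef1a2 (listed as zgc:92085), in mammals the muscle and neuron form of eEF1A, had -0.40 and 0.72 at 30 hpf and 0.11, 0.47 and -0.98 at 48 hpf, with up to 46 probes sharing a value. It was listed at 24 hpf, at -0.62 and -0.67.

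The release factor gene etf1b, which encodes eRF1, had its 2 independent stages on opposite sides of 0. Its ratios were -0.41 and -0.51 at 24 hpf, mean -0.46 ± 0.07 (SD, n = 2), and 0.63 and 0.80 at 30 hpf, mean 0.71 ± 0.12 (SD, n = 2). On the 48 hpf list it had -0.91, -0.85 and -0.95. Each of the 7 values was found on this probe alone. The 48 hpf values are low by selection, and the step from 24 to 30 hpf had an adjusted p of 0.601 in limma.

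The synthetase genes were uneven between the arrays of 24 hpf, mixed at 30 hpf and, for leucine and phenylalanine, below 0 at 48 hpf. These were 2 of the 3 synthetase genes read at 48 hpf, beside 25.3% of the named genes below 0 on every array. lars1b, a leucyl-tRNA synthetase gene, had -1.18, -0.66 and -0.43 at 48 hpf, mean -0.75 ± 0.38 (SD, n = 3), with an adjusted p of 0.839 and an unadjusted p of 0.0475. At 30 hpf it had -0.05 and 0.46, and on the 24 hpf list -2.05 and -1.38. farsb, the beta subunit of the phenylalanyl enzyme, had -0.71, -0.34 and -0.60 at 48 hpf, mean -0.55 ± 0.19 (SD, n = 3). Its partner subunit gene farsa had -1.02, -0.66 and -0.72 at 48 hpf, where it is on the list and low by selection. At 30 hpf farsa had 0.02 and -0.23 and farsb -0.06 and 0.44, and at 24 hpf farsa had -0.20 and 0.12.

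The lysyl and glutaminyl enzymes had the same uneven pair of arrays at 24 hpf. kars1 had -0.03 and -1.37 there and qars1 -0.08 and -1.65, so that the second array held nearly all of each mean. kars1 had -0.08 and 0.15 at 30 hpf and -1.05 ± 0.35 (SD, n = 3) on the 48 hpf list. For qars1 the 48 hpf ratios were -0.39, 0.12 and -0.24 and the mean on the 30 hpf list was -1.30 ± 0.34 (SD, n = 2). The mitochondrial seryl enzyme gene sars2 had -1.10 and 0.44 at 24 hpf, 0.85 and 0.13 at 30 hpf, and -1.06 ± 0.34 (SD, n = 3) on the 48 hpf list. The deacylase gene dtd1 had 0.22 and -0.97 at 30 hpf and -0.66, 0.05 and -0.82 at 48 hpf, with -1.62 and -1.47 on the 24 hpf list. Apart from lars1b and farsb at 48 hpf, kars1 and qars1 at 24 hpf and sars2 at 30 hpf, these genes lay on both sides of 0 wherever they were read through another list.

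Differences between stages were read over genes named through the list of the remaining stage, and no member passed. Some of these probes are also on the list of a compared stage, where they are low by selection. They are those of eefsec and a probe of eif4e2 between 48 and 30 hpf, and those of eif3eb and eif4a2 between 30 and 24 hpf. Between 48 and 24 hpf they are the probes of all of these genes. The medians and shares below include them. Between 48 and 30 hpf limma called 0 of 43504 genes and single probes (0%), and 3237 had an unadjusted p under 0.05 (7.44%), with 0 of 20 members among them. The members' median difference was -0.34 and that of the named genes 0.02. With the array prefix as a block the members' median was 0.57 in place of -0.34, and eif4a1b was called at a difference of 5.15 (adjusted p = 0.041). The stages lay under different prefixes, so the size of the prefix term came from the 24 hpf arrays alone. All 20 members are on the 24 hpf list, so that term rests on values low by selection. For eif4a1b these were -1.27 and -5.52, and their gap enters the called difference. Between 30 and 24 hpf 1 of 43601 was called (0.00229%). An unadjusted p under 0.05 was found for 3 of 15 members, eif2b4, eif3eb and etf1b, 20.0% against 8.22% of all genes and single probes. All 15 members come from the 48 hpf list. Such p-values were not counted among the 627 genes named through it, so these shares are of unlike sets. The 30 hpf values of eif3eb are on that stage's list and low by selection, so its p is no test of the step. The members' median difference was -0.07 and that of the named genes 0.20. Over the arrays of 1 prefix, without 24 hpf replicate 2, it was 0.06. Between 48 and 24 hpf 1 of 43503 was called (0.0023%), with 1 of 10 members, eif3f, at an unadjusted p under 0.05, against 8.22%. There the median difference was 0.21 for the members and 0.15 for the named genes, and over the arrays of 1 prefix, without 24 hpf replicate 1, it was 0.23. Without 24 hpf replicate 2 it was -0.27.

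Some members stood on opposite sides of 0 on every array of a pair of stages. At 48 and 30 hpf these were 4 of 20, 20.0% against 14.9% of the named genes, eif3ba and eif4ba above 0 at 30 hpf and eif4a1b and eif4g3a above 0 at 48 hpf. At 30 and 24 hpf they were eif6 and etf1b, 2 of 15, 13.3% against 16.7%. At 48 and 24 hpf they were eef2l2 and eif3f, 2 of 10, 20.0% against 12.5%. This did not hold for every single probe of a gene. An eif3ba probe had -0.09 on 30 hpf replicate 1 and 0.16 and 0.27 on 48 hpf replicates 2 and 3. An eif6 probe had -0.02 on 30 hpf replicate 2, and an eef2l2 probe -0.16 on 48 hpf replicate 3. The eif3f probe of the 48 hpf list had -0.08 on 24 hpf replicate 1. The step of etf1b from 24 to 30 hpf was 1.17 ± 0.46 (SE) with an adjusted p of 0.601 in limma, and that of eif2b4 was -1.42 ± 0.49 (SE) with the same adjusted p. eef2l2 was 0.99 ± 0.43 (SE) higher at 48 than at 24 hpf (adjusted p = 0.611). Each stage served in 2 of the 3 contrasts, which are therefore not independent of each other.

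**Figure D4:**
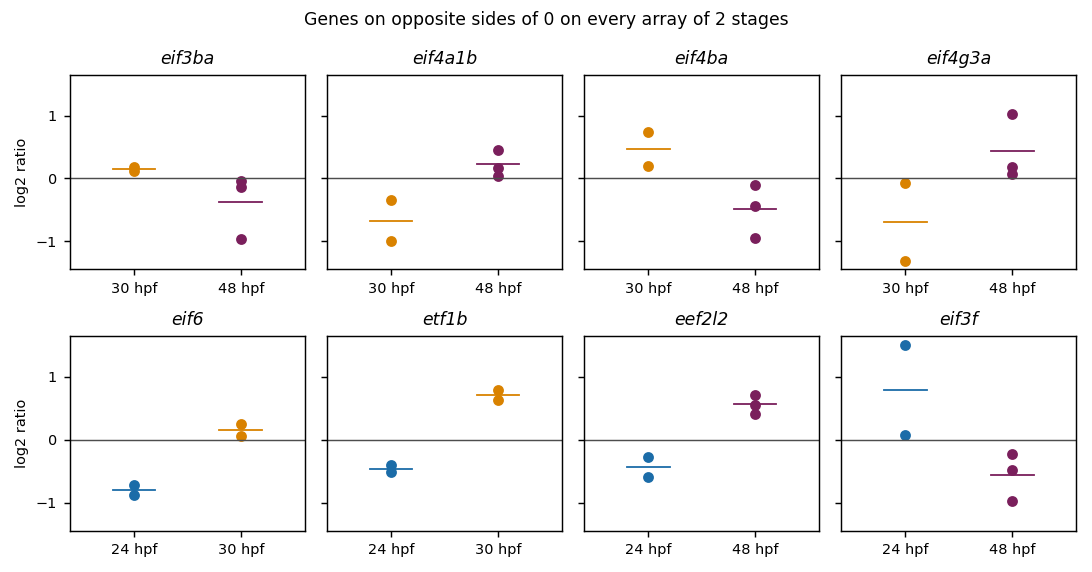
Log2 ratio (y axis) of tbx5-MO over WT at the 2 stages named under each panel for the 8 genes with every array of one stage above 0 and every array of the other below. Points are single arrays and lines are means, from -0.80 for eif6 at 24 hpf to 0.79 for the eif3f probe of the 30 hpf list at 24 hpf. Points of eif3ba, eif6 and eef2l2 are means of several probes, and a single probe of each crossed 0 within a stage. None of the 8 differences passed the adjusted test.

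Where a gene had several probes they often disagreed. The 9 genes with more than 1 member probe gave 63 gene and array pairs, and in 20 of them the probes lay on both sides of 0. The widest gap, 4.69 on the log2 scale, was between the probes of eif3ja on 24 hpf replicate 2, at -2.40 and 2.29. The same probes differed by at most 0.33 at 48 hpf, where both are listed. For eif2ak3, the PERK gene, the probe at chr13:19406748-19406807 had 0.18, 0.57 and 1.05 at 48 hpf and the one at chr13:19385032-19385090 -0.50, -0.07 and -0.34, on opposite sides of 0 on all 3 arrays. Their mean of 0.15 ± 0.27 (SD, n = 3) therefore describes neither. The second eif2ak3 probe had values shared by up to 203 probes and no value found on it alone. At 24 hpf the probe read through the 30 hpf list had 0.15 and -0.14, and at 30 hpf the one read through the 24 hpf list 0.10 and 0.45, while each was low on its own list (means -0.94 and -0.85). For eif4eb the probes gave -1.47, 0.26 and -0.90 against 0.31, 0.01 and 0.28 at 48 hpf. Coordinates are those of the authors' lists, in which unplaced contigs carry names of the Zv7 assembly. The build is not otherwise given in the sources used here.

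**Figure D5:**
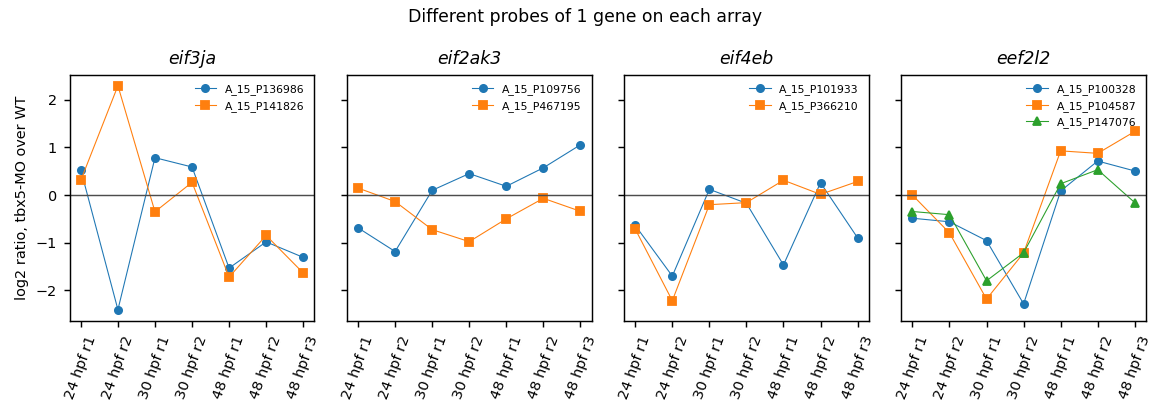
Log2 ratio (y axis) of each probe of eif3ja, eif2ak3, eif4eb and eef2l2 on the 7 arrays (x axis, r1 to r3 are replicates), 1 line per probe joining its values. The eif3ja probes part by 4.69 on 24 hpf replicate 2, the eif2ak3 probes lie on opposite sides of 0 at 48 hpf, and the 3 eef2l2 probes part by up to 1.49 at 48 hpf, with both signs on replicate 3 (1.33, 0.50 and -0.16).

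Genes next to translation in the cell were few among the named ones. Of 54 other translation genes (poly(A)-binding proteins, ribosome recycling factors and the like) 6, 13 and 15 were named through other lists at 24, 30 and 48 hpf, of 40 targets of ATF4, the transcription factor made when eIF2 is phosphorylated, 7, 7 and 9, and of 35 genes of the mTOR pathway, which governs the 4E-binding proteins, 9, 6 and 6. None passed the adjusted limma test at any stage. At 48 hpf 4 of 15 other translation genes were below 0 on all 3 arrays and 2 above, beside 25.3% and 17.6% of the named genes. Of the ATF4 targets 1 of 9 was below and 1 above, and of the mTOR genes 0 of 6 and 2. pdcd4a, a repressor of eIF4A in mammals, had a mean of -1.0 ± 0.42 (SD, n = 3) at 48 hpf (unadjusted p = 0.0188, adjusted p = 0.839), and abcf1, a partner of eIF2 in mammals, 1.38 ± 0.32 (SD, n = 3; adjusted p = 0.794). At 24 hpf the ribosome recycling factor abce1 had -0.57 and -2.06, and at 30 hpf -0.32 and -0.59. Among the ATF4 targets the stress-response gene sesn3 had 0.92 and 2.62 at 24 hpf (unadjusted p = 0.00939, adjusted p = 0.348 in limma) and 1.54 and 1.20 at 30 hpf (adjusted p = 0.565 in limma), and it is on the mTOR list too. The proline synthesis gene pycr1a had 0.99 and 2.76 at 30 hpf (unadjusted p = 0.00476, adjusted p = 0.448 in limma), and the amino acid transporter gene slc3a2b -0.41 and -1.82 at 24 hpf (unadjusted p = 0.0406, adjusted p = 0.391 in limma). These targets thus lay on both sides of 0.

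The limit of the lists lay close to several members. The highest of a member's array values nearest to -0.584 from below was -0.59 for eif4ba at 24 hpf, -0.62 for eif4a2 at 30 hpf and -0.59 for eif4bb at 48 hpf. Nearest from above were -0.55 for a probe of eif6 at 24 hpf, -0.40 for a probe of eif3f at 30 hpf and -0.51 for eif3ea at 48 hpf. Over the members on a list the mean log2 ratio ran from -3.39 to -0.64 at 24 hpf with a median of -1.39, from -1.76 to -0.73 at 30 hpf with a median of -1.12, and from -1.84 to -0.70 at 48 hpf with a median of -0.94.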

How the data were processed

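Whole-embryo RNA was compared on 7 2-colour arrays. After a GenePix scan the authors normalized the arrays in GeneSpring GX 10.0.2 and deposited log2 ratios per probe and array. How GeneSpring was set is not stated, and spot intensities were not used here. The deposited value table carries no probe names, so each listed probe was placed on the single table probe with the same values on its stage's arrays (tolerance 1e-05). Symbols were updated by Entrez number through a RefSeq table of GRCz12tu, and all 49 member probes matched, with 26 symbols changed. Probes of a gene were averaged. limma 3.58.1 in R 4.3.3 fitted stage means over all 7 arrays, and Benjamini-Hochberg adjustment ran over all genes and single probes. The pipeline was tested on simulated data.

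The members, their roles and the gene lists were chosen with earlier results of these data known. Named genes follow a rule by stage and role (lowest and highest means, opposite stages, disagreeing probes, values near the list limit), under which all 39 members were named. Genes of the 3 neighbouring lists were chosen after their values were seen, as were the groups by complex. Same-numbered arrays did not deviate together (correlations -0.01 to 0.02), so arrays were not paired. Alternatives were median centring, scaling, single-stage fits, robust moderation, the replicate number and the array prefix as blocks, other uses of several probes, a limit of 10 probes sharing a value, listed symbols, an adjusted p of 0.10 and each array left out. Leaving out dtd1, and leaving out genes read through a probe also on the list of the stage itself, were added after seeing the data.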

Additional observations from a re-analysis of the deposited data

Results flagged for a closer look

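For 8 genes every array of one stage lay on one side of 0 and every array of another stage on the other side. This did not hold for every single probe of eif3ba, eif6, eef2l2 and eif3f. The log2 difference between 48 and 30 hpf was -0.53 for eif3ba, 0.90 for eif4a1b, -0.96 for eif4ba and 1.12 for eif4g3a. Between 30 and 24 hpf it was 0.95 for eif6 and 1.17 for etf1b, and between 48 and 24 hpf 0.99 for eef2l2 and -1.35 for eif3f. The test of each difference in limma gave adjusted p-values from 0.601 for etf1b to 0.879 for eif4a1b, so none passed. Of these, eif3ba and eif4g3a turned sign with the array prefix as a block. That term came from the 24 hpf arrays alone, where both genes are listed and low by selection. The groups of 2 and 3 arrays were too small to test a single array as standing apart from its group.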

How the results depend on the processing

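The number of members called stayed at 0 at every stage and between stages under every alternative, except that leaving out arrays gave 0 to 1 at 24 hpf (eif1axb) and the array prefix as a block gave 1 between 48 and 30 hpf. With each array left out the members below 0 on every remaining array numbered 15 to 16 at 24 hpf, 17 to 18 at 30 hpf and 11 to 15 at 48 hpf, over fewer arrays. Their median then lay from -0.24 to -0.097 at 24 hpf, from -0.042 to 0.059 at 30 hpf and from -0.32 to -0.088 at 48 hpf, and the median difference from -0.50 to -0.18 for 48 minus 30 hpf, from -0.13 to 0.060 for 30 minus 24 hpf and from -0.27 to 0.32 for 48 minus 24 hpf.

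The array prefix as a block moved the median to -0.088 at 30 hpf, from -0.25 to -0.13 at 48 hpf, to 0.57 for 48 minus 30 hpf and to 0.060 for 30 minus 24 hpf. It turned the 30 hpf means of eif3ba (-0.71), eif4a1a (-1.57), eif4bb (-0.088), eif4ebp2 (-0.10), eif4enif1 (-0.28) and eif4g3a (0.35), the 48 hpf means of eif3ba (0.48), eif3ea (0.38) and eif4g3a (-0.61), and the differences between 48 and 30 hpf of eif3ba (1.19) and eif4g3a (-0.97). Other means on both sides of 0 also changed sign, at 30 hpf eif2b2 (0.21), kars1 (-0.64) and farsa (0.05) and at 48 hpf eif4eb (0.39), qars1 (0.61) and eif4e2 (0.16). The size of the prefix term came from the 24 hpf arrays alone. For eif3ba, eif3ea, eif4a1a, eif4ebp2, eif4enif1 and eif4g3a, all on the 24 hpf list, it thus rests on values low by selection. Without members read through a probe also on the list of the stage itself the 30 hpf median was 0.15 over 31 members. Limited to values shared by at most 10 probes, 16 members stayed at 24 hpf, of which 7 were below 0 on both arrays with a median of -0.18, the median for 48 minus 24 hpf was -0.14 over 5 members, and eif4ebp2 had -0.036 at 30 hpf. With the symbols as listed the 30 hpf median was 0.15 over 27 members. The cause of these shifts was not tested. The replicate number of the titles was also used as a block, which the check above does not bear out as a pairing. The members' medians were then -0.31, 0.04 and -0.25 at 24, 30 and 48 hpf, and 0 members were called. Repeated values limit the resolution of single ratios, and spot brightness is unknown.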
